A study of Bos taurus with 6 samples.

Results

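The genes described here are the 10 that encode replicative DNA polymerases, their primase, their clamp and a flap nuclease, namely POLA1, POLA2, PRIM1 and PRIM2 of the polymerase alpha-primase complex, POLE and POLE2 of polymerase epsilon, POLD1 and POLD2 of polymerase delta, the sliding clamp PCNA and the flap endonuclease FEN1. They were chosen by gene name, with earlier results of these data known, and each name occurred on 1 of the 32183 rows of the expression tables. RNA was sequenced from 6 cultures of rumen epithelial primary cells (REPC), which had been isolated from 1 Holstein bull calf of 2 weeks of age that received milk replacer only. In 3 cultures 5 mM butyrate, a fermentation product of rumen microbes and an inhibitor of histone deacetylases, was present in the medium for 24 h, and the other 3 were untreated controls. The paper describes the groups as before and after treatment, and the time at which the controls were harvested is not given. Any difference in culture time between the groups cannot be told apart from butyrate. The labels number the cultures of each group as replicates 1 to 3, and because all of them come from the same animal, the p-values below measure the spread between cultures and not between animals. Expression is given as FPKM, the number of fragments relative to transcript length and to all mapped fragments of the culture, a unit that is already divided by length and so allows levels of different genes to be set side by side.

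Replicative DNA polymerases cannot start a strand on their own. The primase subunits PRIM1 and PRIM2 lay down a short RNA primer, POLA1 with its partner POLA2 extends it with DNA, and synthesis is then handed over to polymerase epsilon on the leading strand and to polymerase delta on the lagging strand. PCNA, a ring loaded around the DNA by clamp loaders, holds the polymerases in place, and FEN1 cuts the displaced flaps so that the fragments of the lagging strand can be joined. In dividing cells these genes are transcribed mainly around the start of S phase under control of E2F factors, and epithelium of the rumen renews itself from a dividing basal layer.

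Whole-culture profiles of log2(FPKM + 0.1) correlated across genes at 0.973 to 0.977 within groups and at 0.903 to 0.912 between them, and no culture stood apart from its group. The tables contain no counts, so the depth of each culture is unknown from them, but each FPKM carries a lower and an upper confidence bound that expresses the counting error. The epithelial markers KRT5 and KRT8 reached 401 ± 30.7 and 1380 ± 61.4 FPKM in control (SD, n = 3), whereas EPCAM was at 0.540 ± 0.174 FPKM and GRHL2 was listed at 0 in all control cultures. Fibroblast and smooth muscle markers were uneven. Among fibroblast markers, VIM and COL1A1 averaged 2464 and 1149 FPKM in control, whereas LUM, PDGFRA and PDGFRB averaged 0.149, 0.306 and 0.0203 FPKM. Among smooth muscle markers, ACTA2 and CNN1 averaged 2752 and 805 FPKM in control, whereas MYH11 and DES averaged 0.662 and 0.367 FPKM. The summed level of 9 fibroblast markers ran from 4356 to 4512 FPKM in control and from 6374 to 6715 FPKM after butyrate, with all 8 tested members higher, and that of 4 smooth muscle markers from 3437 to 3626 and from 1033 to 1391 FPKM, with 3 lower and 1 higher. Of 12 epithelial markers, whose sum ran from 2549 to 2667 and from 5281 to 5364 FPKM, 8 of 11 tested were higher and 1 was lower. Summed endothelial markers ran from 1.95 to 2.07 and from 6.48 to 8.43 FPKM, with both tested members higher, and summed immune markers from 5.12 to 7.15 and from 7.23 to 9.38 FPKM, with 1 of 2 tested higher, while PTPRC, LYZ and CDH5 were listed at 0 in every culture. By the same test, which is described below, 32.5% of all tested genes were higher and 25.9% were lower. The part of cell composition in the results below was not tested.

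After 24 h of butyrate, all 10 replication genes fell. Changes were tested with limma on log2(FPKM + 0.1) over 15813 genes, and a gene is said to have fallen or risen where its Benjamini-Hochberg adjusted p was under 0.05. By this rule 25.9% of all tested genes were lower, against 10 of the 10. In each of the 10 the 3 butyrate values lay below the 3 control values, which was the case for 28.9% of all tested genes. The median log2 fold change of the 10 genes was -2.39, where that of all tested genes was 0.10. With the thresholds of the study for a differentially expressed gene (DEG), a log2 fold change beyond 2 together with a p under 0.05 after Bonferroni correction, PCNA, POLA2, FEN1 and POLD1 were downregulated DEGs, which are 4 of the 10 genes, beside 1.51% of all tested genes. The exact permutation test over the 6 cultures gave p = 0.1 (two-sided) for each gene, the smallest value that 3 cultures against 3 allow.

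**Figure D1:**
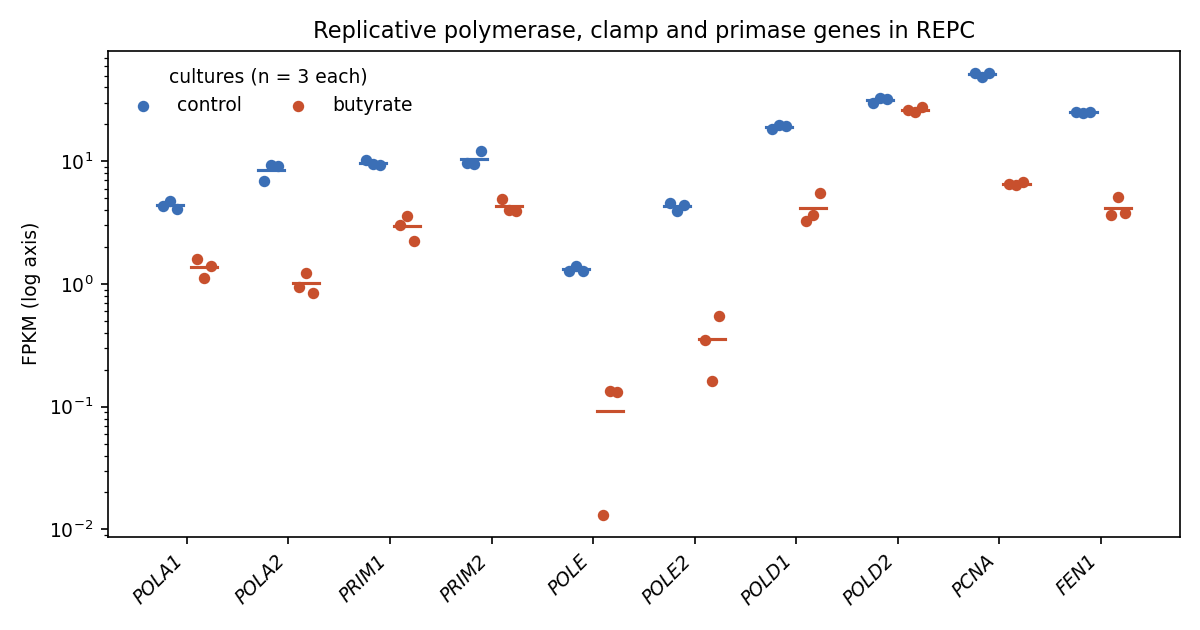
FPKM of the 10 genes in each culture on a log axis, with control cultures in blue, butyrate cultures in orange and the mean of each group as a bar. Butyrate values lie below control values for each gene, narrowly for POLD2 (25.3 to 27.5 against 30.1 to 32.9 FPKM) and most widely for POLE and POLE2.

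The genes were sorted by remaining expression at cuts of 25% and 50%, which were set for description. After butyrate, 6 genes stood below 25% of their control mean, 3 stood between 25% and 50%, and 1, POLD2, stood above 50%. POLE, POLE2, POLA2, PCNA, FEN1 and POLD1 formed the first group, and POLA1, PRIM1 and PRIM2 formed the second. The cut at 25% did not separate POLD1 and PRIM1, which kept 21.6% ± 6.33 and 30.2% ± 6.71 of control (SD, n = 3). The 8 proliferation markers examined moved in the same direction, since MKI67, TOP2A, CDK1, CCNB1, BUB1, AURKA, PLK1 and CENPF were all downregulated DEGs, and their summed level went from between 223 and 232 FPKM in control to between 6.81 and 9.64 FPKM after butyrate. In bulk RNA of this kind, fewer dividing cells and less RNA of these genes per cell cannot be told apart.

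Within polymerase alpha-primase, the complex that primes both strands, the polymerase genes POLA1 and POLA2 fell by different amounts. POLA1, the catalytic polymerase subunit (chromosome X from 125373115 to 125668607 in UMD3.1), measured 4.34, 4.75 and 4.11 FPKM in control replicates 1 to 3 and 1.61, 1.12 and 1.40 FPKM in butyrate replicates 1 to 3. On the log2 scale the change was -1.62 ± 0.18 (SE, limma, adjusted p = 8.2e-05), which left 31.3% ± 5.63 (SD, n = 3) of the control mean. POLA2, the regulatory B subunit (chromosome 29 from 44143135 to 44170096), was at 6.90, 9.32 and 9.08 FPKM in control and at 0.953, 1.24 and 0.848 FPKM after butyrate. Its mean was 8.33-fold lower, against 3.20-fold for POLA1, and its log2 change was -2.94 ± 0.19 (SE, limma, adjusted p = 3.5e-06). In control its level was above that of POLA1 in every culture, and after butyrate it was below POLA1 in replicates 1 and 3 but not in replicate 2.

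Both primase genes fell as well. PRIM1, the catalytic subunit that joins the first ribonucleotides (chromosome 5 from 57042183 to 57061070), went from 10.3, 9.55 and 9.41 FPKM to 3.02, 3.56 and 2.26 FPKM, a log2 change of -1.71 ± 0.17 (SE, limma, adjusted p = 3.7e-05). PRIM2, the large subunit, which contacts the primer and polymerase alpha (chromosome 23 from 2475803 to 2809862), went from 9.69, 9.53 and 12.2 FPKM to 4.98, 4.03 and 3.93 FPKM. PRIM2 had a log2 change of -1.26 ± 0.14 (SE, limma, adjusted p = 9.3e-05), and at 41.1% ± 5.54 (SD, n = 3) of control it kept more of its expression than any of the 10 genes but POLD2. Neither primase gene nor POLA1 was a DEG, as their log2 fold changes stayed within 2 and their Bonferroni-corrected p-values in limma lay between 0.0826 and 0.273.

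The polymerase epsilon genes lost the largest share of their expression. POLE, the catalytic subunit of the leading-strand polymerase (chromosome 17 from 45511611 to 45572631), was the lowest of the 10 genes, with 1.27, 1.41 and 1.27 FPKM in control and 0.0132, 0.133 and 0.132 FPKM after butyrate. The highest upper confidence bound among the butyrate cultures was 0.224 FPKM and the lowest lower bound among the controls was 0.995 FPKM, so the groups were separate by their counting error too, although the bound reached down to 0 in butyrate replicate 1. POLE2, its B subunit (chromosome 10 from 42715324 to 42747233), went from 4.57, 3.94 and 4.40 FPKM to 0.350, 0.162 and 0.551 FPKM. The log2 change was -2.95 ± 0.37 for POLE (SE, limma, adjusted p = 0.000168) and -3.37 ± 0.33 for POLE2 (SE, limma, adjusted p = 3.6e-05), the latter being the largest fall among the 10 genes on this scale. At such low levels the size and the rank of the change depend on the constant added before taking logs, as with 0.01 POLE came first (-4.09, against -3.72 for POLE2), with 1 PCNA did (-2.79, against -1.98 for POLE2), and without butyrate replicate 2 POLE did (-3.12, against -3.02 for POLE2). As ratios of group means, POLE was 14.2-fold and POLE2 12.2-fold lower, and on the FPKM scale their butyrate values varied by 74.3% and 54.9% (coefficient of variation, n = 3). That spread goes with Bonferroni-corrected p-values of 0.572 and 0.0795 in limma, and so neither gene was a DEG despite a log2 fold change beyond 2. This call turned for POLE2 with a minimum mean of 1 FPKM (limma, Bonferroni-adjusted p = 0.04) and for POLE with quantile normalization (limma, Bonferroni-adjusted p = 0.0308).

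In polymerase delta, the lagging-strand enzyme, the catalytic subunit fell much further than its B subunit. POLD1, the catalytic subunit (chromosome 18 from 57008175 to 57056561), was at 18.5, 19.9 and 19.3 FPKM in control and at 3.28, 3.65 and 5.55 FPKM after butyrate, with a log2 change of -2.22 ± 0.18 (SE, limma, adjusted p = 1.2e-05). Butyrate replicate 3 was the highest of the treated cultures and still lay far below the controls. POLD2, the B subunit that links POLD1 to the accessory subunits (chromosome 4 from 77873883 to 77881765), was at 30.1, 32.9 and 32.1 FPKM in control and at 26.1, 25.3 and 27.5 FPKM after butyrate. It kept 83.0% ± 3.57 (SD, n = 3) of its control level, and its log2 change of -0.27 ± 0.07 (SE) had a 95% interval from -0.42 to -0.11 (limma, adjusted p = 0.00813). POLD2 was the only one of the 10 genes in which the confidence bounds of the groups overlapped, with an upper bound of up to 30.9 FPKM after butyrate and a lower bound down to 26.4 FPKM in control. Rescaled to TPM, its log2 fold change was -0.14 and no longer passed (limma, adjusted p = 0.0876), a scaling that moved the median of all genes from 0.10 to 0.23.

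The file's POLD1 locus encloses other genes, and whether reads were assigned by strand is not given in the sources used here. SPIB, inside it, was listed at 0 in all control cultures and averaged 0.387 ± 0.182 FPKM (SD, n = 3) after butyrate, and the uncharacterised LOC101903595 fell from 19.3 ± 3.16 to 7.44 ± 3.24 FPKM (SD, n = 3). LOC104974915, also inside it, rose from 0.129 ± 0.224 to 1.35 ± 0.283 FPKM (SD, n = 3). The level of POLD1 is therefore less certain than that of the other genes, none of which overlapped another gene with expression above 0.

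PCNA, the clamp, was the most abundant of the 10 genes in control, and its values were the most even of the 10 after butyrate. It measured 52.5, 49.0 and 52.6 FPKM in control replicates 1 to 3 and 6.48, 6.41 and 6.73 FPKM in butyrate replicates 1 to 3 (chromosome 13 from 47788528 to 47794602). What remained was 12.7% ± 0.328 (SD, n = 3) of the control mean, a log2 change of -2.95 ± 0.07 (SE, limma, adjusted p = 3.2e-08). Only 175 of the 15813 tested genes, or 1.11%, had a lower log2 fold change. FEN1, the flap endonuclease that PCNA recruits (chromosome 29 from 40931652 to 40936454), went from 25.2, 24.6 and 25.3 FPKM to 3.66, 5.11 and 3.80 FPKM. Butyrate replicate 2 was the highest treated value, and the log2 change was -2.57 ± 0.13 (SE, limma, adjusted p = 8.5e-07).

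Genes next to these loci did not all follow. TMEM230, within 1000 bases of PCNA, had 43.8 ± 2.30 FPKM in control and 42.2 ± 1.09 FPKM after butyrate (SD, n = 3), and did not pass the test (limma, log2 fold change -0.05, adjusted p = 0.474). PXMP2, beside POLE, rose with a log2 fold change of 0.17 (limma, adjusted p = 0.0479), and AEBP1, beside POLD2, had a log2 fold change of -0.37 that did not pass (limma, adjusted p = 0.114). TMEM258, which ends 263 bases before FEN1, fell from 496 ± 30.9 to 268 ± 15.6 FPKM (SD, n = 3), a log2 fold change of -0.88 (limma, adjusted p = 3.6e-06).

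**Figure D2:**
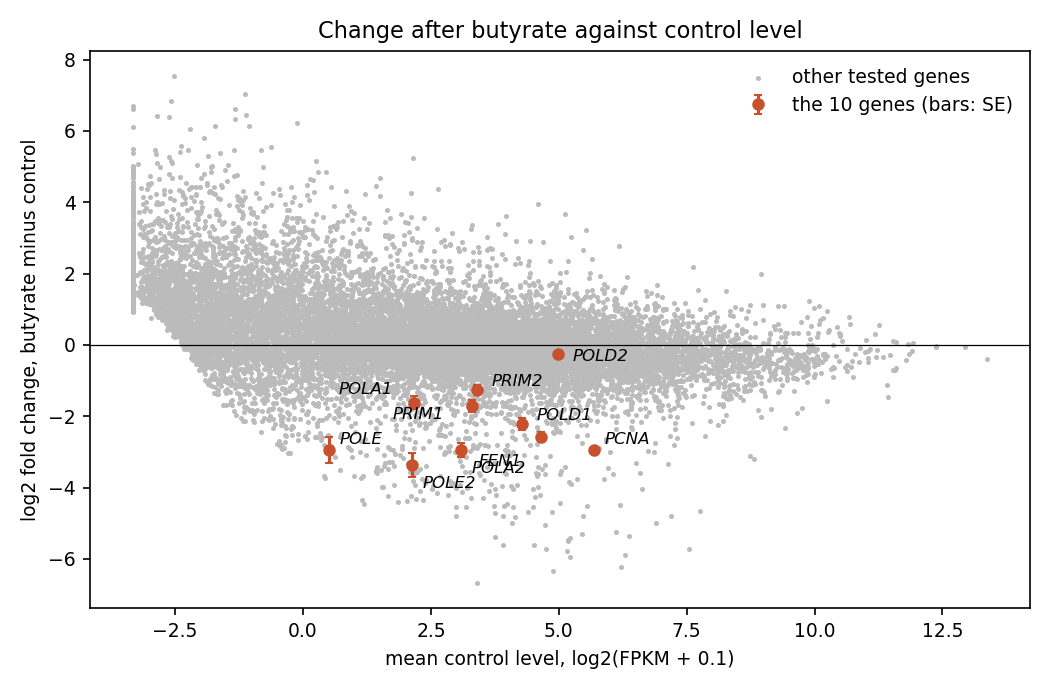
Log2 fold change against the mean control level of the 15813 tested genes (grey), with the 10 genes in orange and bars for the standard error. The 10 genes had control means from 1.31 to 51.4 FPKM and changes from -3.37 to -0.27. The lower left corner is empty because the 0.1 added before taking logs limits the fall of low genes. The minimum mean of 0.1 FPKM also removes genes there.

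The order of the genes by level changed with treatment. In control it ran PCNA, POLD2, FEN1, POLD1, PRIM2, PRIM1, POLA2, POLA1, POLE2 and POLE, from 51.4 down to 1.31 FPKM. Here PRIM2 and PRIM1, and POLA1 and POLE2, did not differ beyond the spread of their cultures, since their ranges overlapped, and the other 7 of the 9 neighbouring pairs were separate. After butyrate POLD2 came first with 26.3 ± 1.13 FPKM (SD, n = 3), followed by PCNA with 6.54 ± 0.169 FPKM. The ranges of PRIM2, FEN1, POLD1 and PRIM1 overlapped from one to the next, as did those of POLA1 and POLA2. Added together, the 10 genes amounted to between 163 and 170 FPKM in a control culture and to between 50.4 and 52.7 FPKM in a butyrate culture. PCNA made up 29.7% to 32.2% of that sum in control and 12.6% to 12.9% after butyrate, while the share of POLD2 went from between 18.4% and 19.9% to between 49.9% and 52.2%.

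Ordered by fold change instead, the genes ran POLE2, PCNA, POLE, POLA2, FEN1, POLD1, PRIM1, POLA1, PRIM2 and POLD2, from the largest fall to the smallest. Of the 9 neighbouring pairs, PRIM2 and POLD2 alone had ratios that did not overlap between control and butyrate cultures, where the log2 fold changes differed by -0.99 ± 0.17 (SE, exact permutation test, two-sided, p = 0.1). That p is the smallest value possible, and after Benjamini-Hochberg adjustment over the 9 pairs it was 0.6 (exact permutation test). The other 8 pairs overlapped, and their ranks are not separated by the spread between cultures. PCNA and POLE, for instance, differed by -0.003 on this scale with a standard error of 0.35, an uncertainty that comes mainly from POLE.

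The ratios of 7 pairs of subunits or partners were compared between groups, as log2 of the ratio of FPKM + 0.1 in each culture. For POLD1/POLD2 the control mean was -0.72 ± 0.02 and the butyrate mean -2.67 ± 0.34 (SD, n = 3), a fall by 1.95 with a standard error of 0.20. As a ratio this is 0.608 in control and 0.157 after butyrate. POLD1, whose level is less certain because its locus encloses other genes, enters this ratio and that of PCNA to POLD1. POLA1/POLA2 moved the other way, from -0.91 ± 0.24 to 0.41 ± 0.47 (SD, n = 3), which is a ratio of 0.531 in control and of 1.33 after butyrate. PCNA per POLD1 fell by 0.74 with a standard error of 0.22, and PCNA per FEN1 fell by 0.39 with a standard error of 0.16. In these 4 of the 7 ratios the groups did not overlap (exact permutation test, two-sided, p = 0.1 for each, the smallest value possible, and 0.175 after Benjamini-Hochberg adjustment over the 7 ratios). How often ratios between other genes separate the groups was not examined, and the count is not read as particular to these pairs.

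The remaining 3 ratios overlapped between groups. PRIM1/PRIM2 differed by -0.45 with a standard error of 0.24 (exact permutation test, p = 0.2), POLA1/PRIM1 by 0.10 with a standard error of 0.29 (exact permutation test, p = 0.9) and POLE/POLE2 by 0.42 with a standard error of 0.56 (exact permutation test, p = 0.7). The standard errors are wide, above all for polymerase epsilon, and these values do not show that the subunits fell equally.

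**Figure D3:**
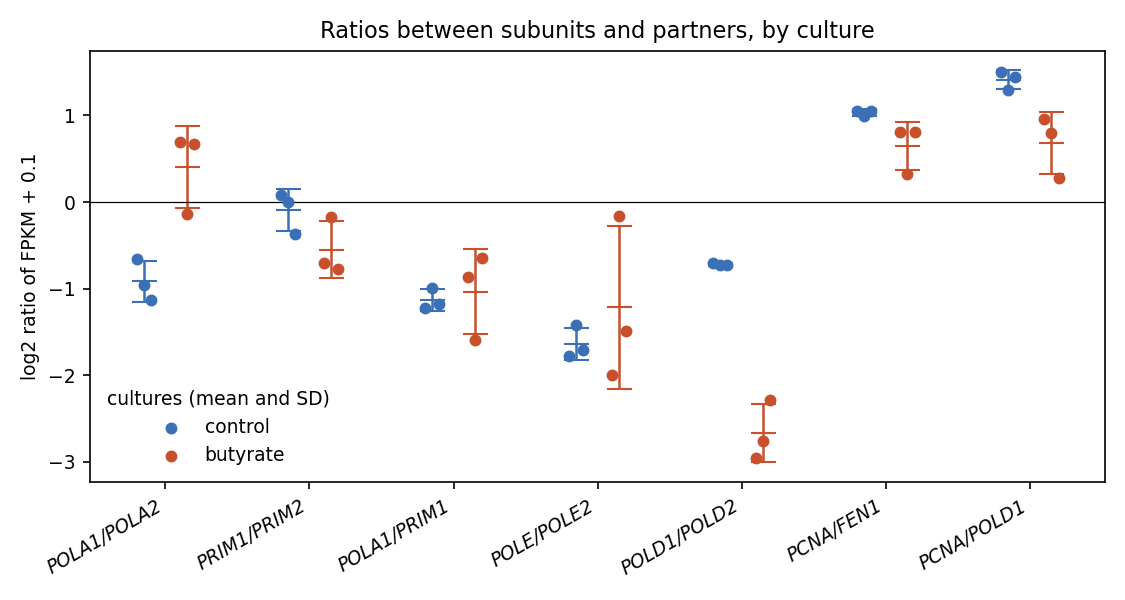
Log2 ratio of FPKM + 0.1 between pairs of the 10 genes, one point per culture, with the mean and the SD of each group as bars. POLD1/POLD2 lies between -0.73 and -0.70 in control and between -2.95 and -2.29 after butyrate, whereas the butyrate values of POLE/POLE2 spread around the control values.

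Other genes of replication and other DNA polymerases were taken from 8 lists of 69 genes, all of which were tested. The lists, too, were chosen with earlier results of these data known. Of these, 50 fell, 7 rose and 12 did not pass, and 15 were downregulated DEGs, where 25.9% of all tested genes were lower, 32.5% higher and 1.51% downregulated DEGs. The number that fell was 46 without a filter on low values, 47 after rescaling to TPM and 44 of the 62 that were tested with a minimum mean of 1 FPKM. The accessory subunits of polymerases delta and epsilon went separate ways. POLD3, which carries a PCNA-binding motif, fell from 5.46 ± 0.492 to 1.13 ± 0.105 FPKM (SD, n = 3, limma, log2 fold change -2.18, adjusted p = 6.5e-06). POLD4, the smallest delta subunit, which is degraded after DNA damage, rose from 53.5 ± 2.33 to 137 ± 4.45 FPKM (SD, n = 3, limma, log2 fold change 1.35, adjusted p = 2.0e-07). POLE3, a histone-fold subunit of polymerase epsilon, fell with a log2 fold change of -1.68 (limma, adjusted p = 2.4e-06). Its partner POLE4 went from 347 ± 3.24 to 297 ± 16.5 FPKM (SD, n = 3), a log2 fold change of -0.23 (limma, adjusted p = 0.00303) that no longer passed after rescaling to TPM (-0.10) or quantile normalization (-0.02).

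Among 10 clamp loader and unloader genes, 8 fell, 1 rose and 1 did not pass. CHTF18, of the loader that acts in sister chromatid cohesion, fell from 20.9 ± 1.22 to 0.720 ± 0.117 FPKM (SD, n = 3, limma, log2 fold change -4.68, adjusted p = 9.4e-08), and its partner DSCC1 had a log2 fold change of -2.97 (limma, adjusted p = 1.2e-06). The canonical loader was uneven, since RFC3 and RFC4 fell with log2 fold changes of -2.09 and -2.10 while RFC1, its large subunit, was at 5.54 ± 0.193 and 5.00 ± 0.252 FPKM (SD, n = 3) and did not pass (limma, adjusted p = 0.29). RAD17, the loader of the damage clamp, had a log2 fold change of 0.36 (limma, adjusted p = 0.0251), a call that was lost without a filter on low values, with the replicate block and without control replicate 3, butyrate replicate 2 or butyrate replicate 3 (limma, adjusted p from 0.0531 to 0.0934). All 11 genes of single-strand binding, fragment maturation and the nuclease family of FEN1 fell. Without a filter on low values, RNASEH2A among them did not pass (limma, adjusted p = 0.0735). The changes of GEN1 and EXO1, relatives of FEN1 that act in recombination and resection, were the largest on this scale, with log2 fold changes of -3.99 and -2.95 (limma, adjusted p = 4.5e-05 and 6.2e-05). Both were near 0.1 FPKM after butyrate, GEN1 at 0 in 1 culture, and with a pseudocount of 1 they had -1.79 and -1.12 and LIG1, the ligase that seals the fragments, came first with -1.80. Of the fork scaffold, 10 of 10 genes fell. GINS4, a helicase subunit, and MCM10, which helps to activate the helicase, had log2 fold changes of -3.50 and -2.84 (limma, adjusted p = 2.7e-05 and 1.3e-05), and with a pseudocount of 1 CDC45 (-2.50) and GINS2 (-2.30) passed both (-2.02 and -2.09).

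Of 12 partners and modifiers of PCNA, 9 fell, 2 rose and 1 did not pass. Without a filter on low values, CHAF1B among the 9 did not pass (limma, adjusted p = 0.0959). PCLAF, a small PCNA-associated factor listed under its older name KIAA0101, fell from a control level of 46.9 ± 2.61 FPKM (SD, n = 3, limma, log2 fold change -4.53, adjusted p = 3.8e-07). UHRF1, which guides maintenance DNA methylation behind the fork, had a log2 fold change of -4.05 (limma, adjusted p = 1.6e-07). HLTF, a ubiquitin ligase for PCNA, rose with a log2 fold change of 0.59 (limma, adjusted p = 0.00153), and WDR48, a cofactor of the enzyme that removes ubiquitin from PCNA, rose by 0.34 (limma, adjusted p = 0.0221). The call of WDR48 was lost without a filter on low values and without control replicate 2, control replicate 3, butyrate replicate 2 or butyrate replicate 3 (limma, adjusted p from 0.0541 to 0.0729). SHPRH, the relative of HLTF, was at 1.61 ± 0.280 and 1.88 ± 0.203 FPKM (SD, n = 3) and did not pass (limma, adjusted p = 0.395).

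Most repair and translesion polymerases did not pass the test. Of 12 such genes, 3 fell, 2 rose and 7 did not pass, so that the share that fell was near the 25.9% of all tested genes, and their median log2 fold change was -0.09. POLQ, of microhomology-mediated end joining, and POLH, which copies past ultraviolet lesions, had log2 fold changes of -2.70 and -2.10 (limma, adjusted p = 0.00027 and 1.7e-06). POLQ averaged only 0.619 FPKM in control and 0.0102 FPKM after butyrate, with 0 in 1 culture. Its log2 fold change was -5.10 with a pseudocount of 0.01 and -0.68 with 1, against -2.14 and -1.79 for POLH. The translesion polymerase POLI rose with a log2 fold change of 1.07 (limma, adjusted p = 0.000102) and its relative POLK with 0.35 (limma, adjusted p = 0.022). PRIMPOL, which primes anew past lesions, was the other gene that fell, with -0.33 (limma, adjusted p = 0.0425). POLK did not pass without a filter on low values or without control replicate 3, butyrate replicate 2 or butyrate replicate 3 (limma, adjusted p from 0.054 to 0.0745). PRIMPOL did not pass after rescaling to TPM, with the replicate block or with any culture but butyrate replicate 1 left out (limma, adjusted p from 0.0588 to 0.169). POLB, of base excision repair, was at 27.4 ± 1.77 and 25.5 ± 1.74 FPKM (SD, n = 3) and did not pass (limma, adjusted p = 0.28). In mitochondrial DNA replication, 6 of 7 genes fell and POLG2 did not pass (limma, log2 fold change 0.33, adjusted p = 0.141). Of the 6, POLRMT and TFAM did not pass without a filter on low values (limma, adjusted p = 0.0566 and 0.0541). POLRMT also did not pass after rescaling to TPM or without control replicate 3, butyrate replicate 1 or butyrate replicate 3 (limma, adjusted p from 0.0518 to 0.0827). MGME1, a mitochondrial nuclease, and TWNK, the mitochondrial helicase, had the largest changes, with log2 fold changes of -2.17 and -1.30, and POLG itself had -0.66 (limma, adjusted p = 6.9e-05). Of the CST complex, an accessory factor of polymerase alpha at telomeres, STN1 rose with a log2 fold change of 0.50 (limma, adjusted p = 0.00407), and CTC1 and TEN1, with 0.34 and -0.07, did not pass (limma, adjusted p = 0.099 and 0.517). The members of the lists are not independent of each other, and the difference between the lists was not tested.

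**Figure D4:**
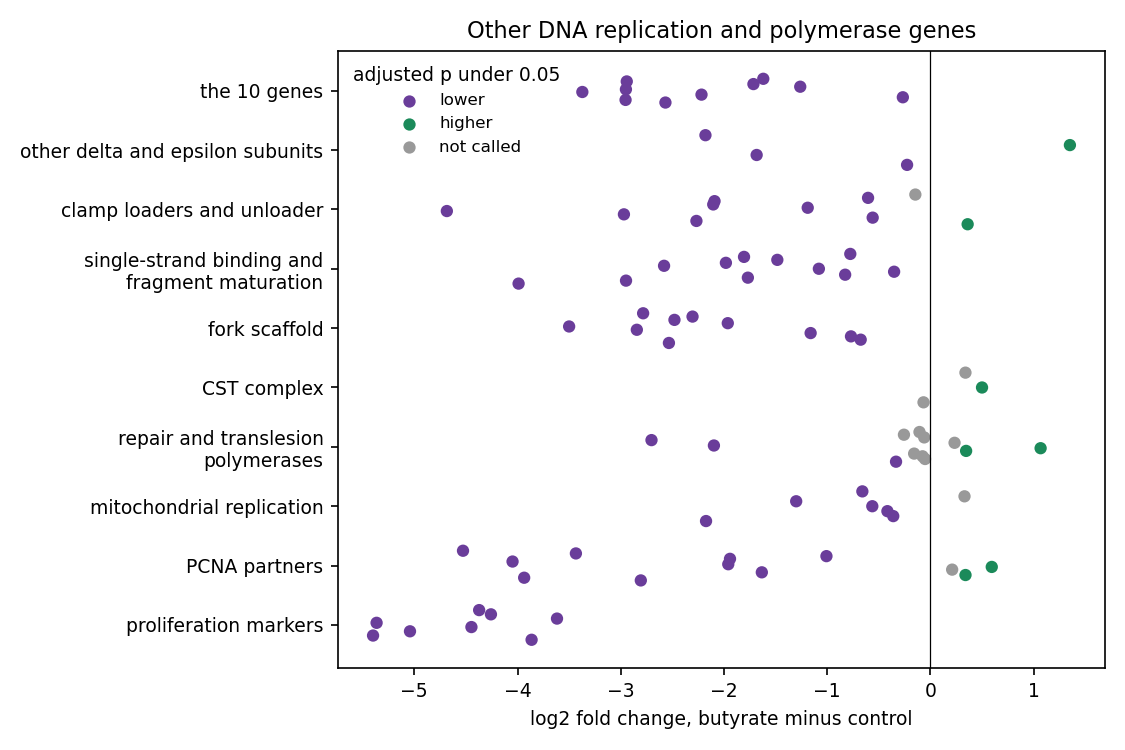
Log2 fold change of the 10 genes, of 69 other genes in 8 lists and of 8 proliferation markers, one point per gene, with lower genes in purple, higher genes in green and genes that did not pass in grey (limma, Benjamini-Hochberg adjusted p under 0.05). POLD4 at 1.35 lies farthest to the right, and most repair and translesion polymerases lie near 0.

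The genes whose profile over the 6 cultures lay closest to the mean profile of the 10 genes were GTF3C2, MCM7, CRELD2, MTHFD1 and MT2A, among 11016 named genes with a mean of at least 1 FPKM. Likeness was measured as the root mean square difference of log2(FPKM + 0.1) after subtraction of each gene's control mean, and it ran from 0.0473 to 0.0669 for these genes. MCM7 went from 86.6 to 19.7 FPKM, a log2 fold change of -2.13. Among the closest to PCNA alone were ESM1, ACTA1, APITD1 and DSCC1, with differences from 0.0538 to 0.127 and log2 fold changes between -3.01 and -2.97. The measure mostly reflects the size of the fall, as the control values of each gene sit near 0 by construction.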

How the data were processed

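Gene-level FPKM values of 6 cultures were used. The authors trimmed reads with Trim Galore 0.4.1, aligned them with STAR, kept uniquely mapped reads and deposited FPKM from Cufflinks with confidence bounds. The submitters' processing notes name UMD3.1, and the versions of STAR and Cufflinks are not given in the sources used here. Chromosomes are those of most genes with the same symbol in the RefSeq table of ARS-UCD2.0, which matched for 22388 of 22716 rows. Starts were counted from 1.

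Rows were joined by gene ID, position and name. A failed estimate removed 2 genes. limma 3.58.1 in R 4.3.3 was fitted to log2(FPKM + 0.1), its variance prior following expression level, for genes with a mean of at least 0.1 FPKM, without a block. The fold change of low genes is understated on this scale. A search of promoters for motifs was not analysed here. Near-identical copies were not examined. Intervals on single values cover counting error only. Ratios were compared by exact permutation in scipy 1.17.1. From each list the 2 largest changes that passed, and genes that did not pass or moved the other way where few, are named; POLE4, POLG, POLB, RFC3 and RFC4 were added after their values were seen. The script was tested on simulated data. The 10 genes and the lists were chosen with earlier results of these data known. One gene that the rule on likeness to PCNA would name is not reported here.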

Additional observations from a re-analysis of the deposited data

How the results depend on the processing

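All 10 genes kept a lower value under each alternative run. These changed the pseudocount, the filter or the scaling, dropped the variance trend, added the replicate block, summed rows of one name or left out 1 culture. Of 159 refitted fold changes, 158 stayed on the same side of the adjusted threshold, the exception being POLD2 after rescaling to TPM. With a minimum mean of 1 FPKM, POLE was not tested. The median log2 fold change moved from -2.39 to -1.72 with a pseudocount of 1, which shrinks low genes by construction. The number of DEGs among the 10 genes was less stable. It was 4, but 1 (PCNA) without a filter and 1 without the trend, between 2 and 3 with a culture left out, 5 with a minimum mean of 1 FPKM (POLE2 added) and 5 with quantile normalization (POLE added). With a pseudocount of 1 it was 3, as POLD1 was lost with a log2 fold change of -1.995. With a culture left out, PCNA and FEN1 were DEGs in each of 6 fits, POLA2 only without control replicate 1 or butyrate replicate 2, and POLD1 only without butyrate replicate 3. The cause was not tested. The change of POLE/POLE2 went from 0.42 to -0.36 with a pseudocount of 0.01, so its direction is not fixed.

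No pairing by replicate number was seen in the values. Deviations of same-numbered cultures correlated at 0.0228, -0.0043 and 0.0018 across genes, and 2 of 6 cultures correlated best with their own number. Whether same-numbered cultures were handled together is not given in the sources used here, and these correlations cannot exclude it. With the replicate number as a block, 3 of the 10 genes were DEGs, and POLD1 had a Bonferroni-adjusted p from limma of 0.0624.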
